A study of Arabidopsis thaliana with 4 samples.

Results

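The DRG (developmentally regulated GTP-binding) protein genes of Arabidopsis thaliana were measured in seedlings that lack 2 heat shock factors, hsfb1 hsfb2b double mutants, and in their wild type, all in mild heat. The family was taken as its 3 loci, AT1G72660, AT4G39520 and AT1G17470, out of 25665 loci with a probe on the array and 19314 genes tested. AT1G17470 is listed as DRG1 in the RefSeq gene table, and the other two carry no symbol there. The 3 loci were chosen by their gene family with their ratios of mutant over wild type already known, so those ratios are given as descriptions without a test. Each locus had 1 probe with 1 spot per array.

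DRG proteins are GTPases of the Obg type, a group found from bacteria to plants and animals whose members bind guanine nucleotides and act on ribosomes. In budding yeast the DRG proteins associate with translating ribosomes together with dedicated partner proteins and help ribosomes through stalls. HSFB1 and HSFB2B belong to class B of the plant heat shock factors, DNA-binding proteins without the activation domain that class A members carry.

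Both groups were Columbia-0 seedlings 5 d old, grown on agar with 2% sucrose at 23 °C in 16 h light and 8 h dark, and put in water of 32 °C for 30 min with their plates. One group carried the hsfb1 and hsfb2b mutations together and the other was wild type. A plate held many plants of each genotype, both genotypes shared the plate in each of 4 biological replicates, and each replicate was hybridised to 1 two-colour array. The mutant carried the green dye Cy3 in replicates 1 and 3 and the red dye Cy5 in replicates 2 and 4, with the wild type in the other channel. Unheated seedlings were not analysed here, so nothing below measures a response to heat.

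Median spot signals were 120.5 to 136 units in green and 166 to 204 units in red, and no spot was saturated. The mutated genes were lower in the mutant, the direction of the labels, with log2 ratios of -5.79 for HSFB1 and -4.68 for HSFB2B. The size depended on the processing, with -6.38 and -6.21 in the Feature Extraction processed signals. Of the tissue markers, 5 of 5 for leaf photosynthesis and 5 of 5 for root endodermis and root hair were well above background in all 8 channels, against 1 of 4 seed storage genes (CRA1) and 1 of 4 flower organ genes (PI). Across the 19314 genes, 29.8% differed at a limma adjusted p under 0.05, against 17.4% without replicate 1 and 11.7% without replicate 3. When no dye term was fitted, 9.45% differed. The log2 ratios correlated across genes at 0.80 between arrays with the mutant in the same dye, and at 0.35 to 0.49 between the others. With all 4 arrays and the dye term, the share was 16.6% for higher and 13.1% for lower genes, with a median log2 ratio of 0.0006.

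AT1G72660 was lower in the mutant on every array. Its mutant channel read 1393, 3129, 1233 and 3373 units in replicates 1 to 4. Its wild-type channel read 5126.5, 3184, 6369 and 3715 units. These unadjusted pairs were closer on the arrays with the mutant in Cy5, and the median signal of each array was higher in red than in green. Local backgrounds at this spot were 47 to 67 units, and both channels were well above background on all 4 arrays with no outlier mark.

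After background correction and loess normalisation, the log2 ratio of mutant over wild type for AT1G72660 was -0.86, -0.97, -1.01 and -1.18 in replicates 1 to 4. On the linear scale these are 0.552, 0.511, 0.496 and 0.442 of the wild-type signal. The fitted log2 ratio was -1.003 ± 0.046 (SE, n = 4 arrays), or 0.499 of the wild-type level. The mean log2 ratio was -0.93 over the Cy3 arrays of the mutant and -1.07 over its Cy5 arrays, a reduction in both dye orientations. Leaving out any 1 replicate kept the value between -1.05 and -0.95.

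The normalised log2 levels of AT1G72660 were 11.21, 11.22, 11.04 and 10.97 in the mutant and 12.07, 12.19, 12.05 and 12.15 in the wild type. The genotypes did not overlap, and the highest mutant level lay below the lowest wild-type level. In whole seedlings, fewer cells of an expressing type and less transcript per cell cannot be told apart.

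**Figure D1:**
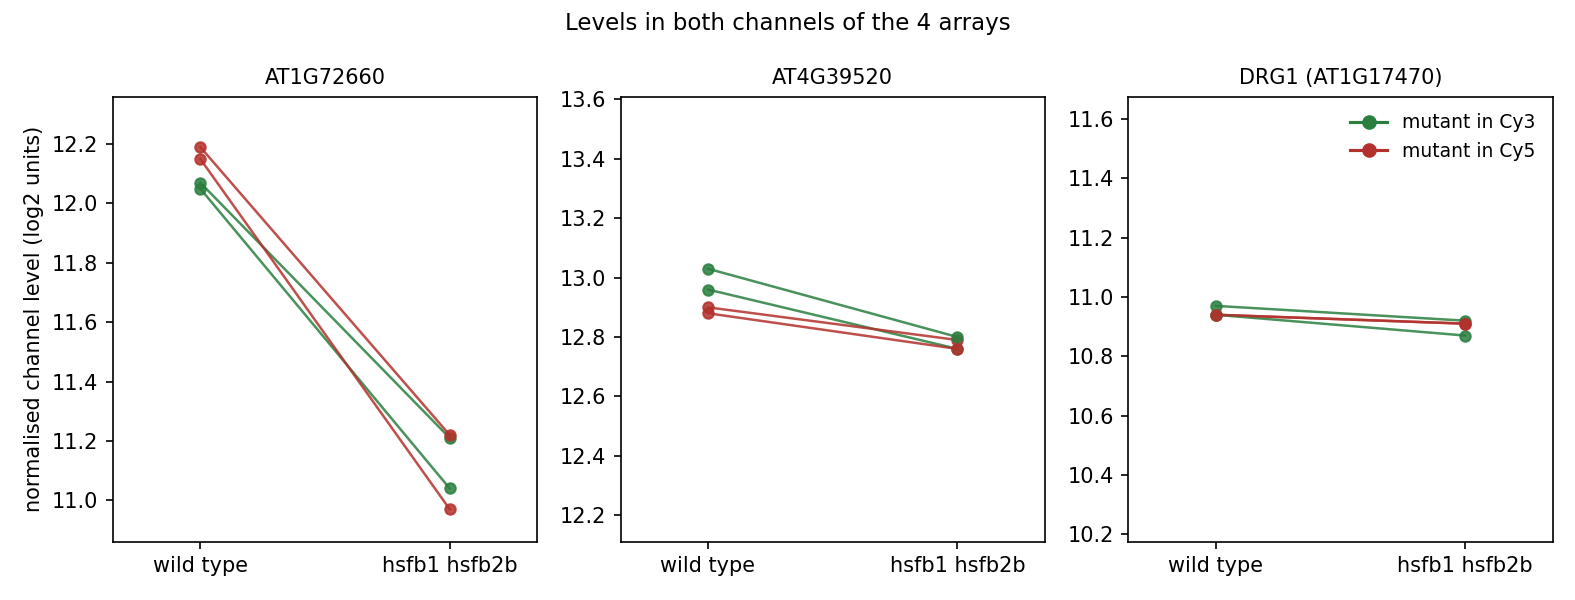
Normalised log2 channel levels of the 3 DRG genes in wild-type and hsfb1 hsfb2b channels, with a line joining the channels of each of the 4 arrays, coloured by the dye of the mutant. Each panel spans the same range in log2 units, and levels of different genes come from different probes and are not comparable. The AT1G72660 lines drop from 12.05 to 12.19 down to 10.97 to 11.22, while the other genes shift by far less.

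AT4G39520 showed a small reduction. Its mutant channel read 4104.5, 9685, 4168 and 12208 units in replicates 1 to 4, and its wild-type channel 9760, 5151, 13212 and 6210 units. The normalised log2 ratios were -0.20, -0.10, -0.23 and -0.11, so the reduction was larger on the arrays with the mutant in Cy3. The means by orientation were -0.22 and -0.11, and the fitted log2 ratio was -0.16 ± 0.032 (SE, n = 4 arrays), or 0.894 of the wild-type level.

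The normalised log2 levels of AT4G39520 were 12.76 to 12.80 in the mutant and 12.88 to 13.03 in the wild type. The ranges did not overlap, but the gap between them was narrow. With median centring of the arrays in place of loess the log2 ratio was -0.26, and in the deposited series values it was -0.10.

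DRG1 (AT1G17470) was nearly level between the genotypes. Its mutant channel read 1160, 2469, 1107 and 3146 units in replicates 1 to 4, and its wild-type channel 2285, 1281, 2831.5 and 1580.5 units. The normalised log2 ratios were -0.05, -0.02, -0.06 and -0.03, and the fitted value was -0.04 ± 0.031 (SE, n = 4 arrays), or 0.972 of the wild-type level. That value is little more than this standard error, which limma moderates with information from all genes. The 4 array ratios of DRG1 themselves had an SD of 0.019.

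The DRG1 value changed sign in 1 of 14 alternatives. It was -0.08 in the Feature Extraction processed signals, -0.10 with median centring and 0.0034 in the deposited series values. The deposited series values are the processed ratios plus a constant of 0.081 on the log2 scale. Centred on each array's median, they gave -0.08. The log2 levels of 10.87 to 10.92 in the mutant and 10.94 to 10.97 in the wild type did not overlap on this scale.

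**Figure D2:**
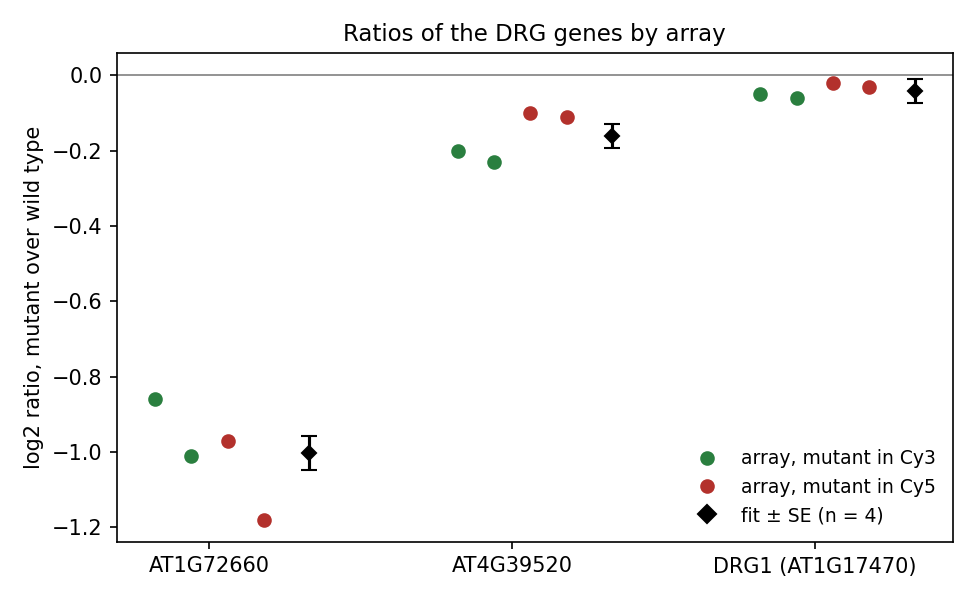
Log2 ratio of mutant over wild type for the 3 DRG genes on each of the 4 arrays (circles, coloured by the dye of the mutant) with the fitted value and its standard error (diamonds, n = 4). AT1G72660 lies between -1.18 and -0.86, AT4G39520 between -0.23 and -0.10, and DRG1 between -0.06 and -0.02.

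All 3 genes had ratios below 0 on all 4 arrays, which held for 16.3% of the 18644 genes with 4 ratios. All 3 had every mutant level below every wild-type level, as did 4.82% of these genes. The loci were chosen with this contrast known, so nothing is read from these counts.

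The members differed in size within every array. The log2 ratio of DRG1 exceeded that of AT1G72660 by 0.81, 0.95, 0.95 and 1.15 in replicates 1 to 4, a mean difference of 0.96 (SD 0.14). AT1G72660 lay below AT4G39520 by a mean log2 difference of -0.84 (single arrays -0.65, -0.87, -0.78 and -1.06). DRG1 lay above AT4G39520 by 0.12 on average (0.15, 0.08, 0.17 and 0.08). The order AT1G72660, AT4G39520, DRG1, from the lowest ratio to the highest, was thus the same on all 4 arrays.

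Dye effects were small beside the ratio of AT1G72660, but not beside those of the other members (-0.16 for AT4G39520 and -0.04 for DRG1). The gene-wise dye term, a shift in log2 red over green common to all arrays, was -0.07 for AT1G72660, 0.05 for AT4G39520 and 0.02 for DRG1, against a median absolute value of 0.065 over all genes tested. Probe sequences were not used here, so how far probes bind transcripts of related genes, in this family and those below, was not tested.

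The deposited scanner ratios, turned to mutant over wild type on the log10 scale, gave AT1G72660 as -0.288 ± 0.067, -0.322 ± 0.068, -0.332 ± 0.069 and -0.374 ± 0.07 in replicates 1 to 4. The error here is Feature Extraction's own estimate for a single spot. For AT4G39520 they ran from -0.0692 to -0.0365 and for DRG1 from -0.0387 to -0.000757, with errors of 0.061 to 0.062. Each AT1G72660 ratio was thus more than 4 times its spot error, while the AT4G39520 ratios were close to their spot error or below it. The authors' deposited natural log values for AT1G72660 were -0.607, -0.685, -0.709 and -0.806, also below 0 on every array.

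Among all genes tested, AT1G72660 stood at the far low end. Only 11 of the 19314 genes, itself included, had a log2 ratio as low, which is 0.057%. On single arrays it ranked 25th, 17th, 18th and 14th from the lowest. AT4G39520 had 7.25% of genes as low or lower, and 19.3% of genes had a ratio of its size in either direction. For DRG1 these shares were 33.6% and 68.2%.

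**Figure D3:**
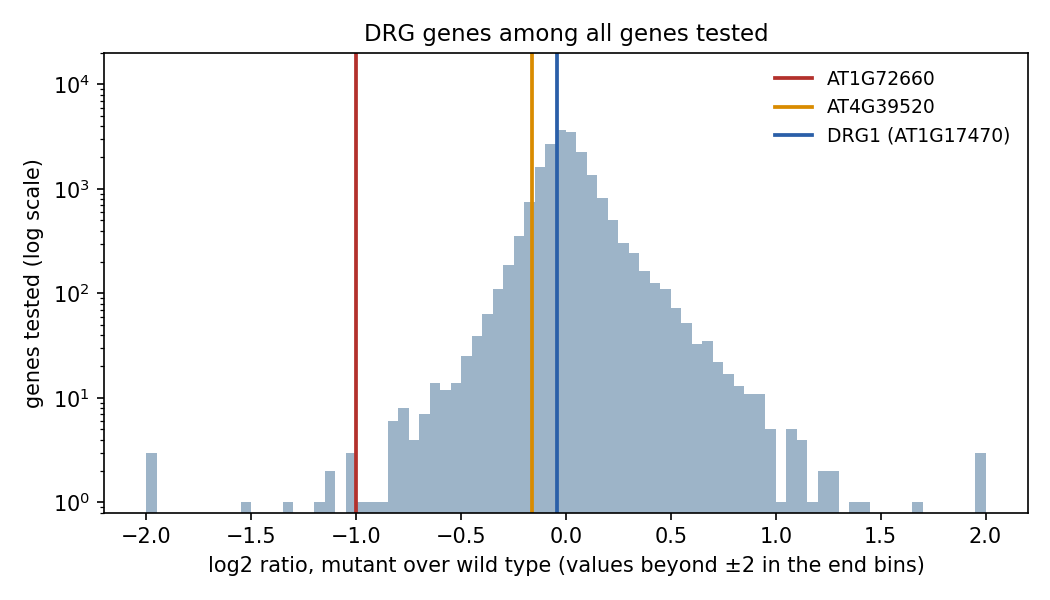
Histogram of fitted log2 ratios of mutant over wild type for the 19314 genes tested, with the number of genes on a log scale, values beyond ±2 in the end bins and vertical lines at the 3 DRG genes. AT1G72660 at -1.003 lies in the sparse low tail, whereas AT4G39520 at -0.16 and DRG1 at -0.04 lie within the bulk.

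The genes whose 4 array ratios lay nearest those of AT1G72660 were found by Euclidean distance on the log2 scale among the other 18643 genes with 4 ratios. They were Hsp70b (AT1G16030, distance 0.39), AT5G10695 (0.44), AT4G21323 (0.46), HSP17.6A (AT5G12030, 0.47) and HSP21 (AT4G27670, 0.47). Hsp70b encodes an HSP70 chaperone, HSP17.6A a cytosolic small heat shock protein and HSP21 a small heat shock protein of the chloroplast. Their fitted log2 ratios were -1.03 for Hsp70b, -1.12 for AT5G10695, -0.81 for AT4G21323, -0.80 for HSP17.6A and -0.82 for HSP21. No gene lay within 0.2 of AT1G72660. Only 11 of the 19314 genes, AT1G72660 included, had a fitted ratio as low. The size of its ratio thus limited which genes could be nearest, and nothing about shared regulation is read from these 5.

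The surroundings of the other members were crowded. Within a distance of 0.2 lay 1462 genes for AT4G39520 and 5598 for DRG1. The nearest to AT4G39520 were CYP71B7, AT2G30150, ZFP8, AT5G12040 and AT5G62140, at distances of 0.035 to 0.041. Those nearest to DRG1 were AT2G24970, ACYB-2, AT5G35100, TOP3A and AT1G28510, at 0.013 to 0.018.

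**Figure D4:**
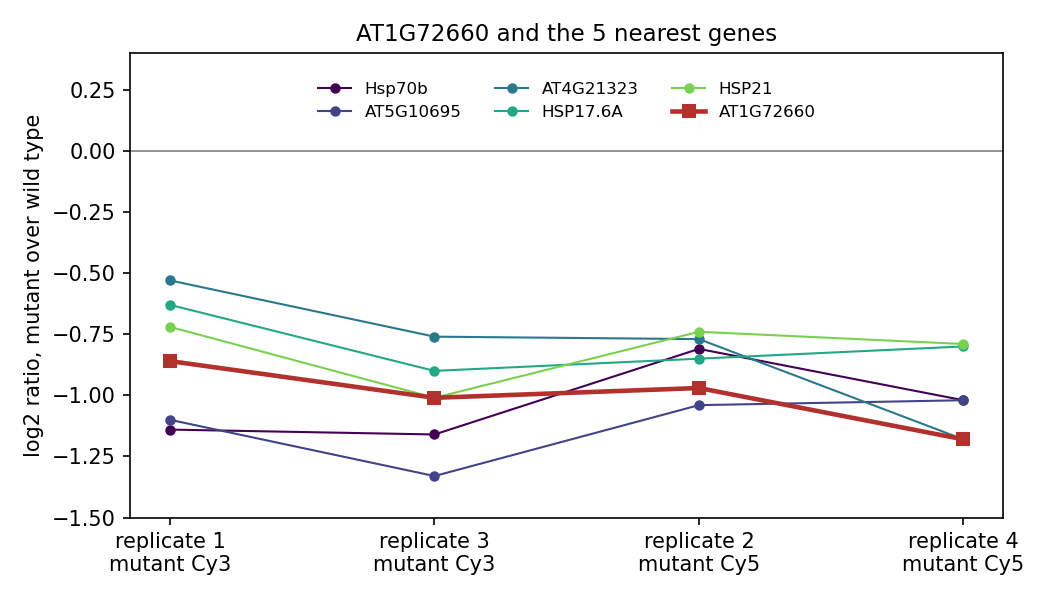
Log2 ratios, mutant over wild type, of AT1G72660 (thick line, squares) and the 5 genes nearest to it, on each of the 4 arrays ordered by the dye of the mutant. All 6 genes stay below -0.5 on every array, and the lines cross between arrays.

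The genes beside each DRG locus were measured on the same arrays. For AT1G72660 the 4 neighbouring protein-coding genes AT1G72645, TRFL6 (AT1G72650), IQD8 (AT1G72670) and CAD1 (AT1G72680) had log2 ratios of 0.02, -0.03, -0.03 and 0.03, and none passed the threshold. The low ratio of AT1G72660 was thus not shared by the measured genes next to it. Around DRG1, the genes ELF4-L4 (AT1G17455), TRFL3 (AT1G17460), IQD7 (AT1G17480) and AT1G17490 had 0.01, -0.04, -0.07 and 0.09, and none passed in limma.

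Around AT4G39520, 2 of the 4 neighbours could be tested, and both were lower. Of all genes tested 13.1% were called lower, and nothing about the region is read from 2 genes. The cytochrome P450 gene CYP96A12 (AT4G39510) had a log2 ratio of -0.36 ± 0.031 (SE, n = 4 arrays, limma adjusted p = 0.00031). The shikimate kinase gene SK2 (AT4G39540) had -0.23 ± 0.038 (limma adjusted p = 0.0048). SK2 no longer passed with the deposited series values (-0.15, and -0.24 once centred) or when no dye term was fitted.

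Genes of the wider pathway were taken from 4 lists with 45 loci, of which 38 were tested and 19 have a symbol in the RefSeq table. The lists were compiled from general knowledge of the families, and loci without a symbol are given by number with no role. Over all 4 lists 6 genes rose, 5 fell and 27 did not pass, against 16.6% and 13.1% of all genes. The shares in the lists were 15.8% and 13.2%, close to those over all genes. Of the list genes, the counts fell to 1 higher and 0 lower without replicate 3, and to 4 higher and 1 lower without replicate 1. Without replicates 2 and 4 the lower count was 3 and 2.

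Neither of the 2 loci listed as candidate partners of DRG proteins passed the threshold. AT1G51730 had a log2 ratio of -0.10 ± 0.032 (SE, n = 4 arrays, limma adjusted p = 0.052), below 0 on all 4 arrays. AT2G20280 had -0.05 ± 0.035 (limma adjusted p = 0.36) and turned to 0.05 in the deposited series values. The list's median was -0.07.

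Of the other Obg-type GTPases 5 of 7 were tested, and 2 fell, none rose and 3 did not pass, with a median of -0.10. The share that fell was 40% of only 5 genes, against 13.1% of all genes. PDE318 (AT1G80770), named for a pigment-defective mutant, fell, with a log2 ratio of -0.14 ± 0.033 (SE, n = 4 arrays, limma adjusted p = 0.016). EMB269 (AT5G18570), the chloroplast OBG-like protein gene also known as CPSAR1, fell, with -0.12 ± 0.035 (limma adjusted p = 0.036). AT1G30580, AT1G50920 and AT1G56050 had 0.02, 0.09 and -0.10. The PDE318 call was lost in 6 of 13 alternatives, among them without replicate 1 (-0.14) or 3 (-0.15). That of EMB269 was lost in 8 of 13, among them without replicate 1 (-0.11), 3 (-0.13) or 4 (-0.09).

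Genes of ribosome rescue and stalling were mostly level. Of 17 loci 15 were tested, and 2 fell, none rose and 13 did not pass, with a median of 0.02. The share that fell was 13.3%, close to the 13.1% of all genes. GCN2 (AT3G59410), the kinase that phosphorylates the initiation factor eIF2 when amino acids run short, had -0.12 ± 0.033 (SE, n = 4 arrays, limma adjusted p = 0.032). VIP3 (AT4G29830), the homolog of yeast SKI8, had -0.12 ± 0.034 (limma adjusted p = 0.035). The GCN2 ratio was -0.03 and 0.05 on the arrays with Cy3-labelled mutant and -0.25 on both others, while VIP3 was below 0 on all 4 arrays. Leaving out any 1 replicate ended both calls, with values of -0.14 to -0.10. PEL1, ABCE1, ABCE2 and ILA did not pass, at -0.01, -0.04, 0.03 and 0.14.

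Translation factors were the list with the most genes that rose. Of 19 loci 16 were tested, and 6 rose, 1 fell and 9 did not pass. The share that rose was 37.5% against 16.6% of all genes, and the median was 0.08 against 0.0006. AT4G02930 had a log2 ratio of 0.27 ± 0.068 (SE, n = 4 arrays, limma adjusted p = 0.024), with single arrays from -0.02 to 0.75. AT1G07920 had 0.21 ± 0.032 (limma adjusted p = 0.0031) and AT1G07940 had 0.16 ± 0.032 (limma adjusted p = 0.011). AT1G21160 fell, with -0.18 ± 0.037 (limma adjusted p = 0.010).

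These translation factor calls depended on the settings. With median centring, and likewise without the dye term, neither the 6 rises nor the fall of AT1G21160 passed in limma. The median-centred values were 0.18 for AT4G02930, 0.06 for AT1G07920, 0.01 for AT1G07940 and -0.19 for AT1G21160. AT4G02930 also lost its call in the processed signals, at 0.30. Without replicate 3 the calls of AT4G02930 (0.15), AT1G07940 (0.15) and AT1G21160 (-0.15) were lost, and that of AT1G07940 also without replicate 1 (0.16). Array values of AT1G07920 were 0.07 and 0.10 with the mutant in Cy3 and 0.36 and 0.32 with the mutant in Cy5. AT5G60390, also among the 6, was at -0.05 and -0.04 on the former arrays and at 0.38 and 0.32 on the latter. AT1G07940 went the other way, with 0.24 and 0.27 on the former and 0.07 and 0.04 on the latter. The elongation factor genes LOS1, SCO1 and RABE1b did not pass, with log2 ratios of 0.09, -0.09 and -0.04, from 3 arrays for LOS1 and RABE1b. The tested genes of the 4 lists ran from -0.18 to 0.27, against -1.003 for AT1G72660.

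**Figure D5:**
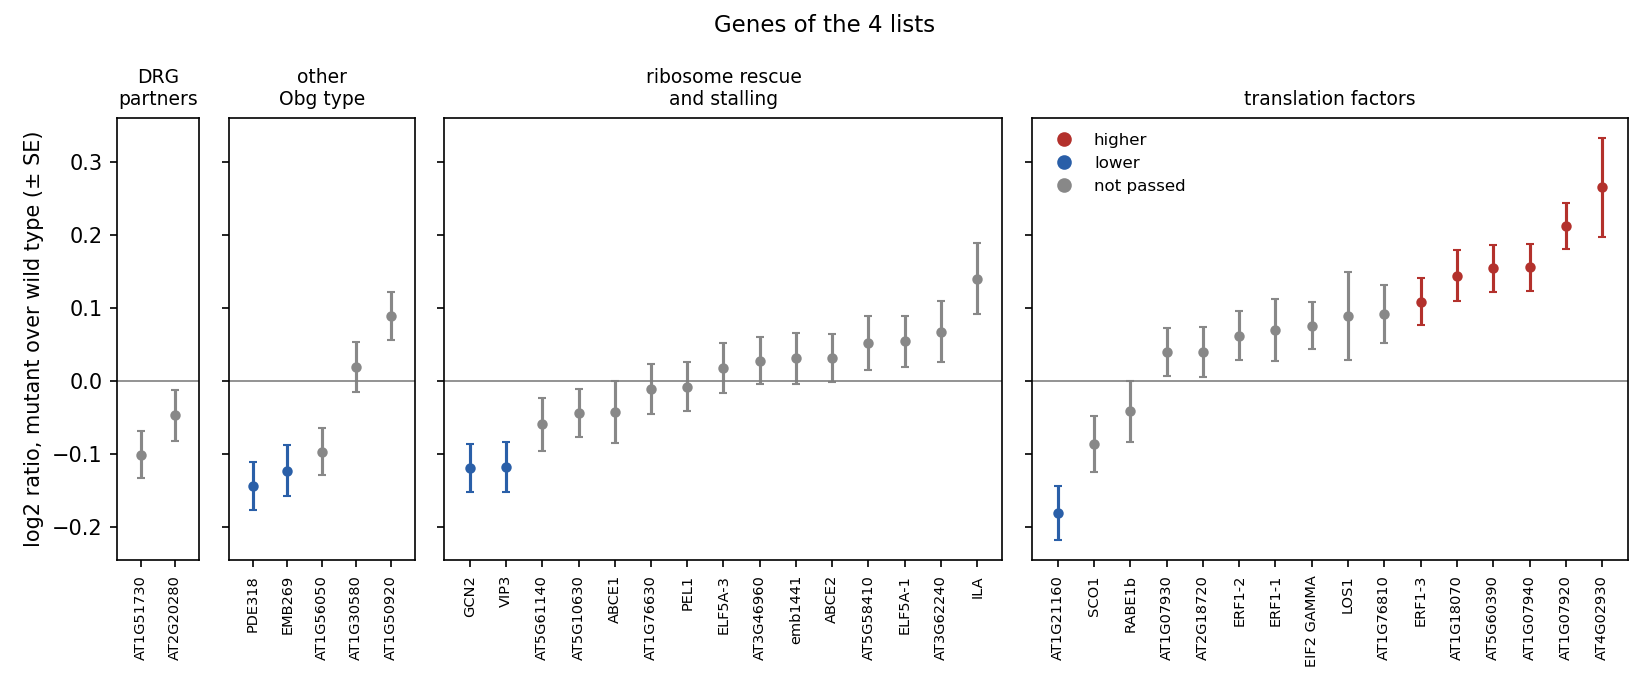
Fitted log2 ratios of mutant over wild type with standard errors (n = 4 arrays, 3 for LOS1 and RABE1b) for the 38 tested genes of the 4 pathway lists, coloured by whether they were higher, lower or not past the threshold in limma. All values lie between -0.18 and 0.27.

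Tissue markers are given beside these results as values, with no test of the lists. The 5 root markers had fitted log2 ratios of 0.35 to 0.52, the 5 leaf markers -0.27 to -0.06, CRA1 0.14 and PI -0.23. The mean log2 level of the root markers was 9.63 to 10.09 in the mutant channels and 9.16 to 9.56 in the wild type. For the 3 leaf markers with all 4 ratios it was 17.03 to 17.55 in the mutant and 17.14 to 17.77 in the wild type. These leaf ranges overlapped, and the mean leaf ratio changed sign between arrays, from -0.74 to 0.35, while that of the root markers was 0.27 to 0.53. Their part in the ratios of the DRG genes was not tested.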

How the data were processed

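Total RNA was labelled with Cy3 or Cy5 and scanned on 4 two-colour Agilent arrays. Per the submitters' processing notes, Agilent Feature Extraction (9.1.3.1) made the deposited scanner files. They hold median spot and background intensity values without normalization, processed intensity signals and the log10 ratio of red over green, per the file headers. The deposited series values are natural log ratios: on every array they equalled the natural log of the processed mutant over wild-type signal plus 0.0563 (0.0561 to 0.0565 over the 37455 probes with 1 spot).

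Median signals were background-corrected with normexp (offset 50, which compresses ratios of dim spots) and loess-normalized within arrays. Control and outlier-marked spots had weight 0, and marked spots (190 to 399 per array) were left out. Probes well above background in all 4 channels of at least 1 genotype with at least 3 ratios were kept, the brightest per locus. Log2 ratios were fitted in limma 3.58.1 (R 4.3.3) across 19314 genes with a gene-wise dye term and eBayes. The SE of each fitted value is the one moderated by eBayes, not that of the gene's ratios alone. Two-sided p-values were adjusted by Benjamini-Hochberg, with a threshold of 0.05. Levels came from Aquantile normalization between arrays. On simulated data the fit recovered 99% of planted log2 changes of 0.5 and 100% of those of 1, with 13 false calls. Smaller changes, such as those called in the lists, were not simulated. The number of arrays limits the precision.

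Genes were named by a rule: the 3 DRG genes, the mutated genes, tested genes of the partner and Obg-type lists, up to 3 called genes per direction in the other lists, 2 neighbours per side and the 5 nearest genes. Further list genes that did not pass (PEL1, ABCE1, ABCE2, ILA, LOS1, SCO1, RABE1b) and AT5G60390, which rose, were picked after their values were seen. Members and lists were chosen with earlier results of these data known. Alternatives were other background corrections, normalizations, signals and filters, no dye term, and leaving out each replicate.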

Additional observations from a re-analysis of the deposited data

Results flagged for a closer look

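AT1G30580, on the list of Obg-type GTPases, had a log2 ratio of -0.05 in replicate 4 against 0.04 to 0.05 in the other 3 arrays, a gap of 0.856 of the whole range. This was 1 of 28 genes looked at in this way, and chance flags about 1 in 20 groups of 4 values.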

How the results depend on the processing

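AT1G72660 stayed between -1.10 and -0.95 in all 14 alternatives. AT4G39520 stayed below 0 in all 14 and moved by more than its spread in 1, to -0.26 with median centring. DRG1 moved to -0.10 with median centring, to -0.08 with Feature Extraction's processed signals, to -0.08 with series values centred on each array's median (an alternative added after seeing the data), and to 0.0034, a change of sign, in the series values as deposited. Those are the processed ratios plus a constant of 0.081 on the log2 scale.

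The count of genes past the threshold was 5747 (3208 higher, 2539 lower). With median centring it was 2547 (1159 higher, 1388 lower), without the dye term 1826 (1242 and 584), and in the centred series values 3616 (2092 and 1524). In the series values as deposited 1203 genes were lower, and 79.9% of the calls were higher, against 55.8% in the main analysis, 68.0% without the dye term and 45.5% with median centring. Leaving out 1 replicate gave 2195 to 5814 genes (1439 to 3218 higher, 756 to 2596 lower), with 2195 without replicate 3 and 3269 without replicate 1.

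Of the list genes, 6 were higher and 5 lower. These counts were 0 and 1 with median centring, 10 and 1 in the series values, 3 and 3 in the processed signals, and by limma 0 and 0 without the dye term. The lower count was 3 with a normexp offset of 0 and 1 in the centred series values. Leaving out 1 replicate gave 1 to 6 higher and 0 to 3 lower. Centring the series values brought the higher count from 10 to 4 and left the lower count at 1. The cause of these changes was not tested.

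For other named genes 325 values were compared, from the mutated genes, the tested neighbours and the list genes named by the rule. Of these, 255 kept their direction and side of the threshold, 49 lost the threshold, 2 gained it and 19 changed sign. The nearest genes and the list genes picked later were not among them. With median centring AT1G30580, AT1G50920, AT1G72645, AT1G72680 and ELF4-L4 turned to -0.07, -0.0055, -0.02, -0.04 and -0.03. In the processed signals AT1G72645 and ELF4-L4 turned to -0.0071 and -0.02. In the series values AT2G20280, TRFL6, IQD8 and TRFL3 turned to 0.05, 0.04, 0.02 and 0.06, and in the centred ones AT1G72645, AT1G72680 and ELF4-L4 to -0.0098, -0.0025 and -0.02. Leaving out 1 replicate moved AT1G72645 between -0.06 and 0.10 and ELF4-L4 between -0.06 and 0.08, both below 0 without replicate 1 (-0.06 and -0.06) or 4 (-0.02 and -0.04), and AT1G30580 to -0.0052 without replicate 2. Each array holds both genotypes of 1 replicate, so every ratio is already paired.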
